A study of Mus musculus with 23 samples.

Results

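The keratin genes are the intermediate filament genes of epithelial cells, and 53 of the 37620 gene identifiers in the count tables carry a mouse symbol made of Krt, a number and at most 1 letter. Keratin pseudogenes and the keratin-associated protein genes were left out. The 53 were placed by where each protein is best known: 3 in the basal layer of the epidermis, 17 in suprabasal and other stratified epithelium, 6 in simple (single-layered) epithelium and 25 in the hair follicle or nail, with Krt90 and Krt222 left unplaced. The tissue was ultraviolet-induced mouse melanoma. The libraries come from total RNA. There were 7 primary melanomas labelled HP, wild type for Nme1 and Nme2 (labelled Nme1wt / Nme2wt), and 7 labelled HPN, heterozygous for both genes (labelled Nme1+/- / Nme2+/-). HPN mice also gave 7 lymph node metastases (brachial, cervical, inguinal, or given only as lymph) and 2 lung metastases. HP mice are known for a transgene of the growth factor Hgf and loss of the p16 product of Cdkn2a, which both genotypes would then share; these alleles and the age of the animals are not given in the labels used here. Node libraries 7a and 7b carry 1 title number and were summed and counted once, so tests use 7 HP primaries, 7 HPN primaries, 6 nodes and 2 lungs. Whether each library of a group is a separate animal is not given in the labels, and the p-values below reflect only how far these libraries vary.

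Keratins work in pairs: a filament is built from 1 acidic type I and 1 basic type II protein, and the pair changes with the cell's place in an epithelium. Krt5 and Krt14 mark dividing basal keratinocytes, Krt1 and Krt10 the layers above, Krt6a, Krt6b, Krt16 and Krt17 wounded skin and parts of the follicle, and Krt8 and Krt18 simple epithelium such as that of the lung. Separate sets build the inner root sheath, which moulds the growing hair, and the hair shaft itself. Melanocytes and melanoma cells instead build their filaments mainly from vimentin, and Vim was between 593 and 3759 CPM (gene counts scaled by library size) in all 23 libraries. In a piece of bulk tumour, fewer epithelial cells and less keratin mRNA per cell cannot be told apart.

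Gene counts per library ran from 18870759 to 89481553. Nme1 was at 16.8 ± 8.06 CPM (SD, n = 7) in HP and 10.6 ± 2.78 CPM (SD, n = 7) in HPN primaries and the ranges overlapped (adjusted p = 0.951, edgeR quasi-likelihood test). Nme2 was at 0.480 ± 0.201 and 0.239 ± 0.127 CPM (SD, n = 7 each), again with overlap (adjusted p = 0.951, edgeR). It was at most 0.877 CPM in any primary. How the counting treated reads that fit more than 1 gene is not given, so these low values may not be the level of Nme2 mRNA. The log2 fold changes were both negative, at -0.69 ± 0.27 for Nme1 and -1.02 ± 0.38 for Nme2 (SE). The 8 melanocyte markers summed to between 4518 and 61545 CPM in the 23 libraries. The 2 lung libraries differed in genes of lung tissue. Sftpc, a surfactant gene of alveolar cells, was at 0.193 CPM in lung 3 and at 4666 CPM in lung 4. The mesothelial gene Msln was at 0.418 and 86.6 CPM, and the melanocyte markers summed to 35681 and 24142 CPM. Results on the lung group are therefore given for each library.

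The members lie on 2 chromosomes, with 27 of the 53 on chromosome 11 and 26 on chromosome 15. RefSeq promoter sequence (build GRCm38.p6) was matched for 36 of them, and the 60 bases before the start were searched for TATAAA or ATAAAA, words that resemble a TATA box. The sequences below run 5′ to 3′ to the start of the gene and are shown because they represent each role whose level is described next (basal, suprabasal, hair and simple, with Krt82 for the hair shaft), with the words found in capitals.
Krt5 (chr15:101712906-101712965, minus strand): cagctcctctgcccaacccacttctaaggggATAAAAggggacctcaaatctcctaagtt
Krt14 (chr11:100206031-100206090, minus strand): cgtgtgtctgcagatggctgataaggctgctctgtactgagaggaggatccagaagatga
Krt10 (chr11:99389365-99389424, minus strand): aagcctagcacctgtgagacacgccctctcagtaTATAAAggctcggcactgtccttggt
Krt2 (chr15:101818170-101818229, minus strand): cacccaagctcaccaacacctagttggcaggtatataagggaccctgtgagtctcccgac
Krt71 (chr15:101743098-101743157, minus strand): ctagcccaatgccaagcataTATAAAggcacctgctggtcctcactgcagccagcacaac
Krt25 (chr11:99322952-99323011, minus strand): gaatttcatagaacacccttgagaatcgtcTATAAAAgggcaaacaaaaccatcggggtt
Krt82 (chr15:101550660-101550719, minus strand): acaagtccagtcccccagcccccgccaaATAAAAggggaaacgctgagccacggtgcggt
Krt7 (chr15:101412343-101412402, plus strand): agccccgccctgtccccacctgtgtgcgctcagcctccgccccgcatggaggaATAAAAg
Krt8 (chr15:102004343-102004402, minus strand): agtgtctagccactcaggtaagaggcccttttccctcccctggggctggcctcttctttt
Krt18 (chr15:102028156-102028215, plus strand): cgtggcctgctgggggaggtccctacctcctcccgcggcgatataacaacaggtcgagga
One or both words stood on the gene's own strand in 23 of the 37 keratin windows (62.2%), against 4.63% of all 32851 windows in the same table. On either strand the shares were 62.2% and 6.96%. The words overlap, so a run of TATAAAA holds both. Among hair keratins 14 of 18 windows held a word, among suprabasal keratins 5 of 11, among simple keratins 3 of 5 and among basal keratins 1 of 2. These shares depend on the words chosen. The similar run tatataag, in the windows of the suprabasal Krt2 and Krt24 and the hair genes Krt36 and Krt39, was not counted. Krt5 held a word and its partner Krt14 did not, and Krt8 and Krt18 held none. In Krt7 the word stood directly beside the start. Neighbouring keratin genes are copies of each other, so these windows are not independent, and a match of letters is a description only.

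The keratins were abundant in some primary melanomas and low in others. Summed over the 53 genes, the level in HP primaries was lowest at 31.4 CPM, median 5407 and highest at 24190. In HPN primaries it was lowest at 34.8, median 1403 and highest at 12588. Nodes ran from 18.0 to 93.8 CPM with a median of 47.0, and the lungs were at 134 and 346. In 8 of the 23 libraries, all of them primaries, keratins exceeded 1000 CPM: HP 1, 3, 4 and 6 and HPN 1, 3, 4 and 6. The largest share of gene counts that keratins took was 2.59%, in HP 6. The 6 other primaries (HP 5, 7 and 9, and HPN 2, 5 and 7) lay between 31.4 and 177 CPM, a range that the nodes overlap. Of the 53 genes, 12 had a count in every library and 7 never exceeded 1 CPM.

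**Figure D1:**
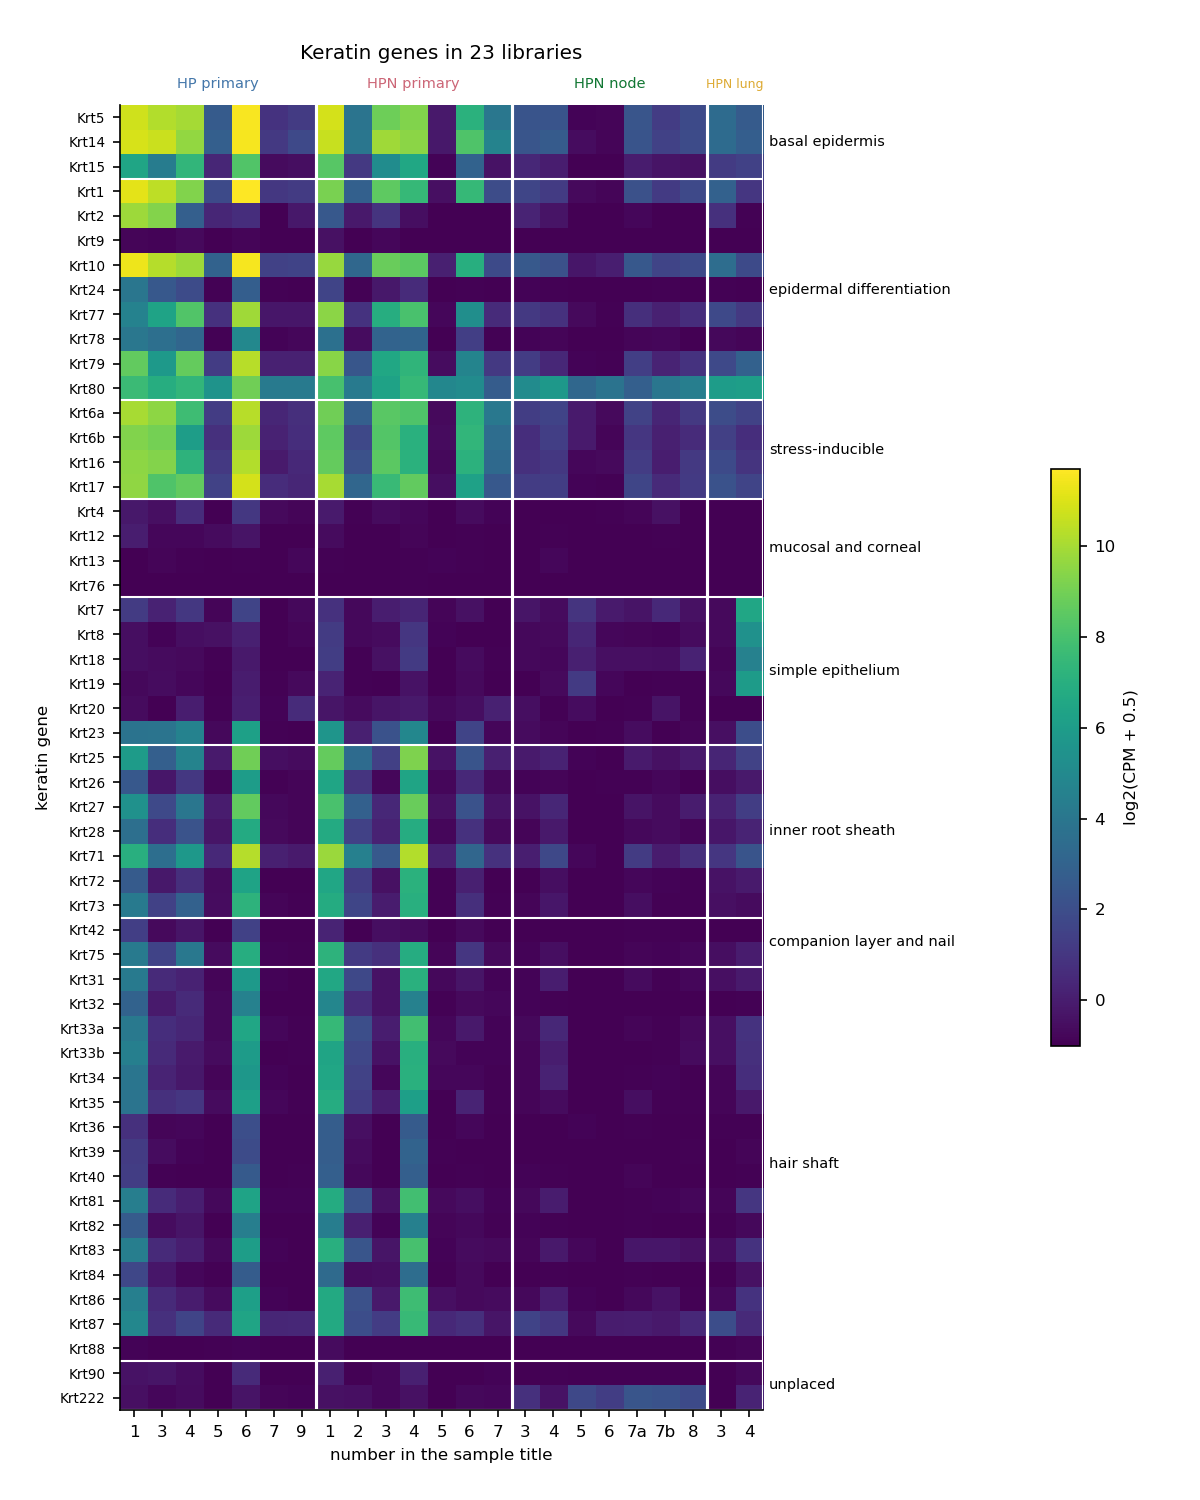
Level of each of the 53 keratin genes (rows, ordered by layer) in each of the 23 libraries (columns, by group and title number), as log2(CPM + 0.5) on the colour scale. Epidermal keratins are bright in HP 1, 3, 4 and 6 and HPN 1, 3, 4 and 6, hair keratins in HP 6 and HPN 1 and 4, and Krt7, Krt8, Krt18 and Krt19 in lung 4.

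In the basal layer, Krt14 was at 1932, 1639, 802, 6.63, 2981, 1.63 and 2.98 CPM in HP primaries 1, 3, 4, 5, 6, 7 and 9. In HPN primaries 1 to 7 it was at 1604, 15.3, 930, 708, 0.388, 290 and 25.2 CPM. Its type II partner Krt5 had the same high and low libraries, with 1.31 to 3068 CPM in HP and 0.426 to 1892 CPM in HPN primaries. Krt15, a keratin of basal cells and the follicle bulge, peaked at 339 CPM in HPN 1 (it is named after its values were seen, as are Krt77 and Krt80 below).

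Above the basal layer, Krt10 ran from 2.26 to 2980 CPM in HP primaries and from 0.601 to 856 CPM in HPN primaries, and Krt1 from 1.56 to 3319 and from 0.213 to 572. The stress-inducible Krt6a, Krt6b, Krt16 and Krt17 were high in the same 8 primaries, with Krt17 at most 1880 CPM in HP 6. Compared per kilobase of each gene's principal transcript, Krt14 was the leading keratin in HP 3, 4 and 6 and in HPN 1, 3 and 6. Krt10 led in HP 1, and the hair keratin Krt71 led in HPN 4.

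2 suprabasal genes did not keep step with Krt1. Krt2, a late-differentiation keratin that in mice is known from ear, tail and sole skin, was at 923 CPM in HP 1 and 656 CPM in HP 3. It was at 6.7 CPM in HP 4, 1.1 in HP 6, and at most 5.13 in any HPN primary. HP 6 had the highest Krt1 of all libraries. Per kilobase, Krt2 stood at 37.3% and 44% of Krt1 in HP 1 and HP 3 and at 0.0312% in HP 6. Krt77, a second type II gene of the suprabasal layers, showed another order: per kilobase it was at 0.868% of Krt1 in HP 1, at 24% in HP 6 and at 107% and 121% in HPN 1 and HPN 4. The anatomical site of each primary is not in the labels used here, and its part in these differences was not tested.

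Hair keratins were high in fewer primaries than epidermal keratins. Krt71, a type II keratin of the inner root sheath, was at 126, 11.6, 54.7, 0.877, 1252, 0.599 and 0.449 CPM in HP 1, 3, 4, 5, 6, 7 and 9. In HPN 1 to 7 it was at 893, 22.4, 5.31, 1197, 0.62, 8.62 and 1.27 CPM. Its type I partner Krt25 was at 489 CPM in HP 6, 416 in HPN 1 and 609 in HPN 4, and at most 61.9 in every other library. The hair shaft followed the same 3 libraries, with Krt33a at 90.3, 183 and 229 CPM and Krt83 at 66.4, 128 and 255. HP 1 came next, with 17.2 and 20.8 CPM. Krt75, of the companion layer beside the sheath, was at 122, 149 and 117 CPM in HP 6, HPN 1 and HPN 4.

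Summed hair keratins made up 13.9% of keratin CPM in HP 6, 25.6% in HPN 1 and 55.6% in HPN 4. In HP 3 and HPN 3 they made up 0.436% and 0.425%, although these libraries held 8661 and 3766 CPM of basal and suprabasal keratin. HPN 2 held little keratin, 177 CPM, and 46.1% of that was hair keratin. Some other genes of the follicle, named after their values were seen, were high in the same 3 libraries. Hoxc13, a transcription factor of the hair shaft, was at 27.3, 22.7 and 24.0 CPM in HP 6, HPN 1 and HPN 4 and at most 9.61 CPM elsewhere. Tchh, the inner root sheath protein trichohyalin, was at 1160, 1008 and 3051 CPM there and at most 176 CPM elsewhere. Among other genes of the lists used below, Dlx3, Msx2 and Foxn1 were also highest in these libraries. Tgm3 was highest in HP 1, at 45.2 CPM, and Lef1 in node 5, at 76.1 CPM.

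**Figure D2:**
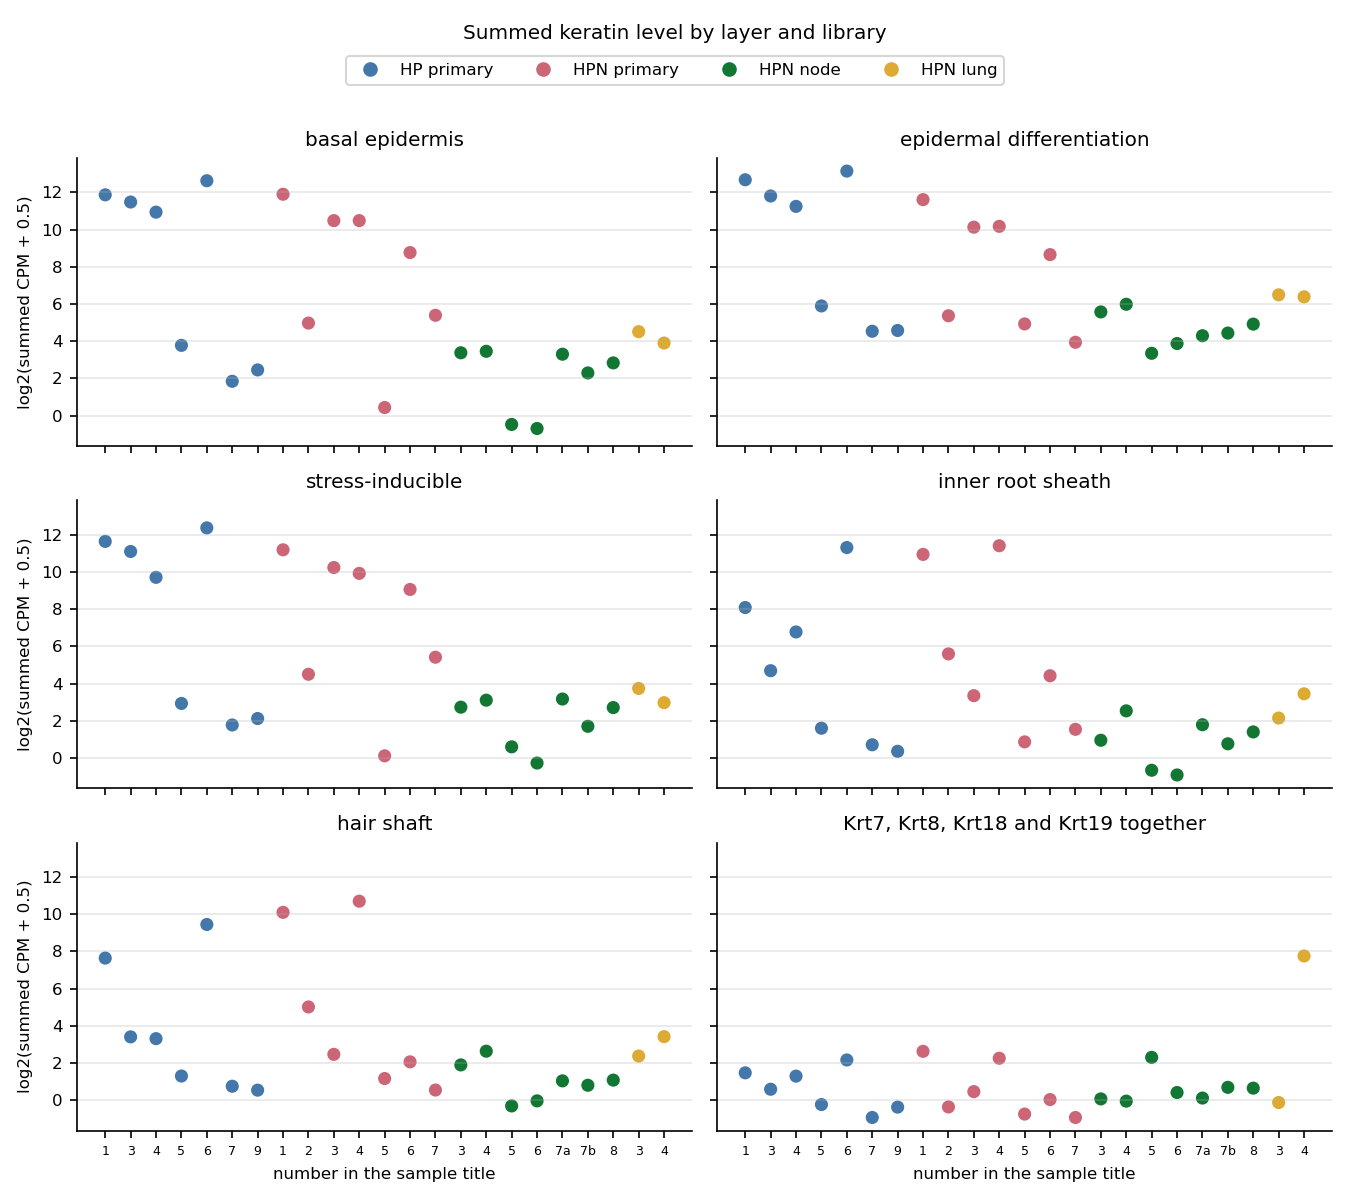
Summed keratin level in each library, as log2(summed CPM + 0.5), in 6 panels for 5 layers and for Krt7, Krt8, Krt18 and Krt19 together, with points coloured by group and ordered by title number. The basal, differentiation and stress panels share 8 high primaries, the inner root sheath and hair shaft panels are highest in HP 6, HPN 1 and HPN 4, and the last panel is highest in lung 4 at 216 CPM.

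Partner keratins were compared within each library. Per kilobase, the log2 ratio of Krt5 to Krt14 lay between -1.44 and -0.05 in the 21 libraries with at least 20 counts of both. For Krt1 to Krt10 it lay between -1.48 and 0.33 (20 libraries), for Krt6a to Krt16 between -0.62 and 0.56 (20 libraries), and for Krt71 to Krt25 between 0.66 and 2.004 (13 libraries). Krt6b to Krt17 was wider, from -3.12 in HP 4 to 0.56 in HPN 7, and it was above 0 in HP 3 and HPN 3, 6 and 7. In Krt72 to Krt27 of the inner root sheath the type I member was always the higher, with ratios from -4.05 to -1.85 in 8 libraries. Krt86 to Krt31 of the hair shaft lay between -0.80 and 0.42 (7 libraries), Krt8 to Krt18 between -0.65 and 0.40 (3 libraries) and Krt7 to Krt19 between -1.71 and 0.98 (4 libraries). Krt4 and Krt13 reached 20 counts together in 0 libraries. Over all keratins, type II genes gave 40.4% to 48.1% of the level per kilobase in the 8 libraries above 1000 CPM. In the other libraries the type II share reached 88.9%, in node 6, where the type II gene Krt80 alone made up 71.3%.

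Genotype was compared between 7 HPN and 7 HP primaries, and no keratin gene passed the test. The test covered 36 of the 53 genes, the rest having too few counts, and 0 were called at an adjusted p under 0.05, as was true of 0% of the 16578 genes tested. At an unadjusted p under 0.05 edgeR had 1 keratin gene and 477 genes in all, and DESeq2 also called 0 keratin genes. The 1 gene was Krt2, with a log2 fold change of -7.85 ± 2.42 (SE) and an adjusted p of 0.951, and its highest levels were those of HP 1 and HP 3. All 15 tested basal and suprabasal genes had negative log2 fold changes, among them Krt1 at -2.57 ± 1.69 and Krt14 at -1.08 ± 1.57 (SE). All 18 tested hair genes had positive ones, among them Krt83 at 2.12 ± 1.999 and Krt71 at 0.54 ± 1.85 (SE). The genes of a layer share their libraries, so these signs are not independent. The ranges of the 2 genotypes overlapped for all 36 genes, and the share without overlap was 0% over all genes tested. The genotype median over all genes was -0.05. In the other gene lists used below 0 genes passed the genotype test.

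In lymph node metastases most keratins were lower than in HPN primaries. Of the 53 genes 46 were tested, 38 were called lower and 1 higher, against 9.81% of all 19152 genes called lower and 12.7% called higher. A gene enters this test through the group where it has counts, so the count of 46 is not a count of all members. A gene that enters through primaries alone can only be lower in nodes, so the shares by role below are partly fixed by this filter. Without HPN primary 1, and likewise without HPN primary 4, 41 were tested and 33 called lower. Krt36, Krt39, Krt40, Krt84 and Krt90 were then no longer among them. By role, 3 of 3 tested basal genes, 10 of 12 suprabasal, 23 of 23 hair and 1 of 6 simple genes fell, together with the unplaced Krt90. The median log2 fold change of the tested keratins was -7.61, against -0.08 for all genes.

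Krt14 was between 0.0595 and 5.66 CPM in the 7 node libraries (median 3.26), against 0.388 to 1604 CPM in HPN primaries (median 290). The ranges overlap through primary 5 alone, the lowest of the primaries for Krt14. The groups overlapped for each of the 38 genes that fell: in none did every node lie below every primary. Over all genes, 5.23% had groups without overlap, in either direction. Krt14 fell by 7.53 ± 1.64 on the log2 scale (SE, adjusted p = 0.00560, edgeR quasi-likelihood test). Krt6a, Krt6b and Krt16 had the smallest p-values, with log2 fold changes of -7.12 ± 1.44, -7.28 ± 1.47 and -7.31 ± 1.52 (SE, adjusted p = 0.00356, 0.00359 and 0.00418, edgeR). Krt5 and Krt17 fell by 7.53 ± 1.70 and 7.68 ± 1.70 (SE, adjusted p = 0.00692 and 0.00614, edgeR), and Krt1 and Krt10 fell by 6.78 ± 1.58 and 6.54 ± 1.51 (SE, adjusted p = 0.00799 and 0.00781, edgeR).

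Hair genes also fell, with log2 fold changes of -8.36 ± 2.05 for Krt71, -8.90 ± 2.06 for Krt25 and -9.18 ± 2.09 for Krt75 (SE, adjusted p = 0.0107, 0.00782 and 0.00713, edgeR). Of the hair shaft, Krt33a was at -8.38 ± 2.25 and Krt83 at -8.11 ± 2.17 (SE, adjusted p = 0.0169 and 0.0165, edgeR). The values rest on few node counts, 236 for Krt71, 75 for Krt25 and 15 for Krt75 over 7 libraries. Krt71 in primaries was itself uneven, with a median of 8.62 CPM and a maximum of 1197. Krt33a and Krt83 were high in HPN 1 and HPN 4 only. In every other HPN primary they were at most 3.65 and 4.52 CPM, and the primary medians were 0.508 and 0.323. From primary to node of title number 4 they changed by -7.42 and -8.14, as log2 of CPM + 0.5. For the other shared numbers these changes lay between -0.88 and 0.46, so the fitted falls are not typical of the primaries. Krt23, which is placed with the simple keratins, was high in the same primaries as the epidermal genes (48.8 CPM in HPN 1, 28.7 in HPN 4) and fell with them by 7.55 ± 1.79 (SE, adjusted p = 0.00886, edgeR).

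The number of calls depended on the samples and the fit. With the title number as a replicate block, which compares node and primary tumours of 1 title number, 4 of 39 tested keratins were called lower (Krt5, Krt14, Krt16 and Krt17), where 1.93% of all genes were called lower. The same samples without the block gave 23, against 5.26% of all genes. Of the 38 genes, 31 were tested with the block, and all 31 had negative log2 fold changes, with a median of -5.43. With only the libraries that list no low-quality reads 16 were called lower, against 2.07% of all genes, and all 38 were negative, with a median of -8.08.

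**Figure D3:**
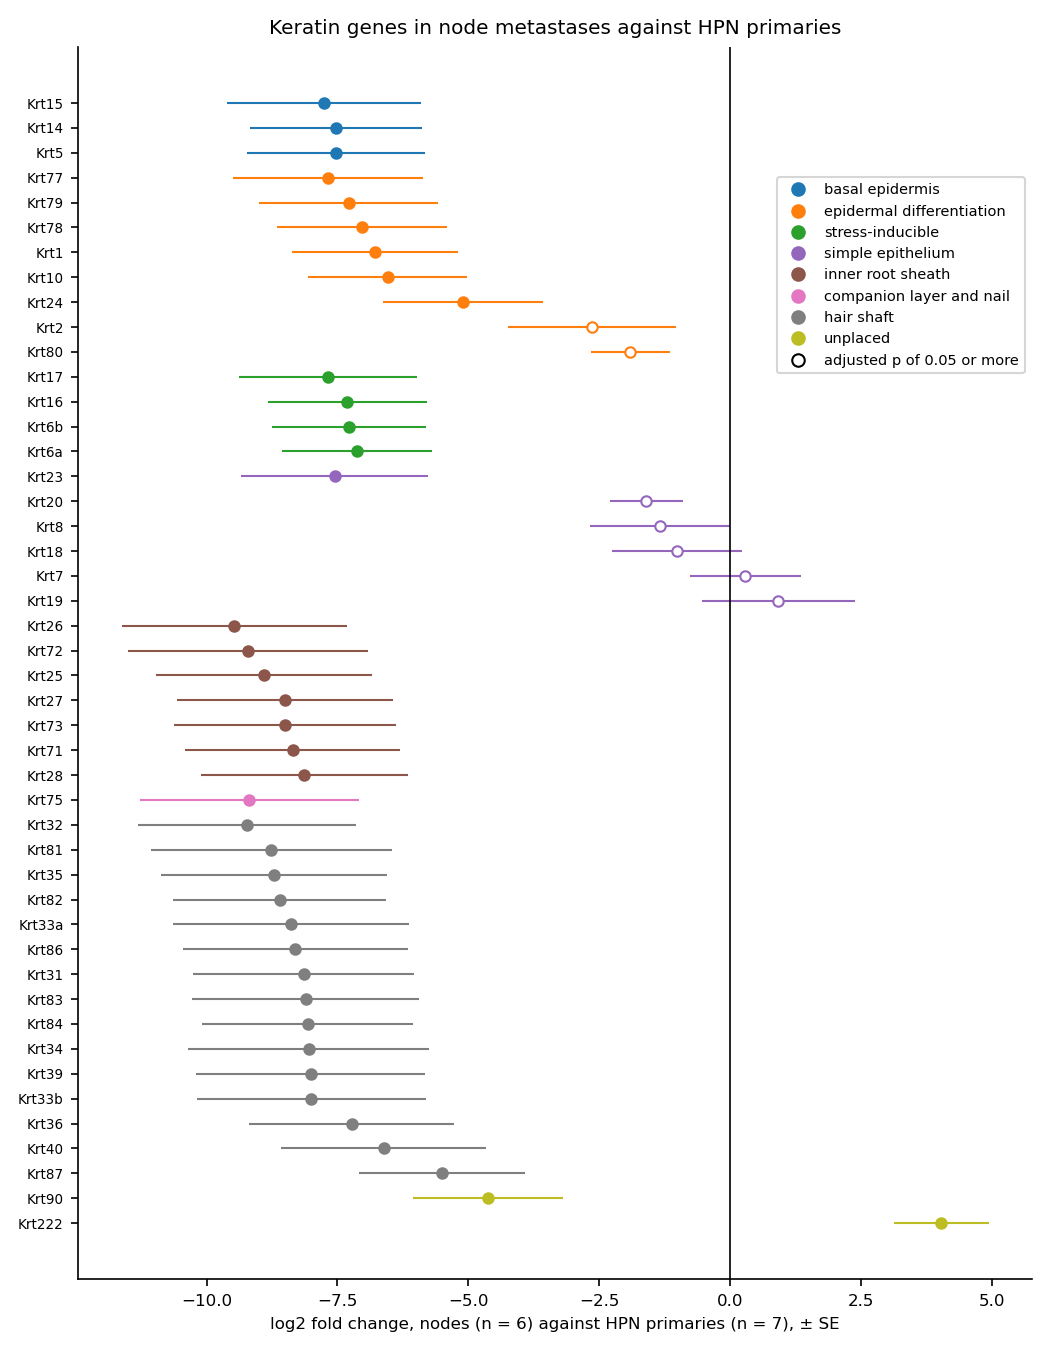
Fitted log2 fold change (points) with its standard error (bars) for the 46 tested keratin genes, nodes (n = 6) against HPN primaries (n = 7), ordered and coloured by layer, with open points for adjusted p of 0.05 or more. The basal, suprabasal and hair genes that passed lie between -5.11 and -9.47, Krt7, Krt8, Krt18 and Krt19 lie between -1.34 and 0.92, and Krt222 is at 4.04.

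Between tumours of the same title number the difference varied with the primary. Summed basal keratin went from 1434 CPM in the primary to 9.91 in the node for number 3, from 1436 to 10.5 for number 4 and from 436 to 0.119 for number 6. For number 7 it went from 41.6 to 6.8 CPM, and for number 5 from 0.853 to 0.22. The first 3 primaries were among the 8 with high keratin and the last 2 were not. Hair keratin went from 4502 to 11.2 CPM for number 4, while for number 7 it was 3.49 CPM in the primary and 3.52 in the node.

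**Figure D4:**
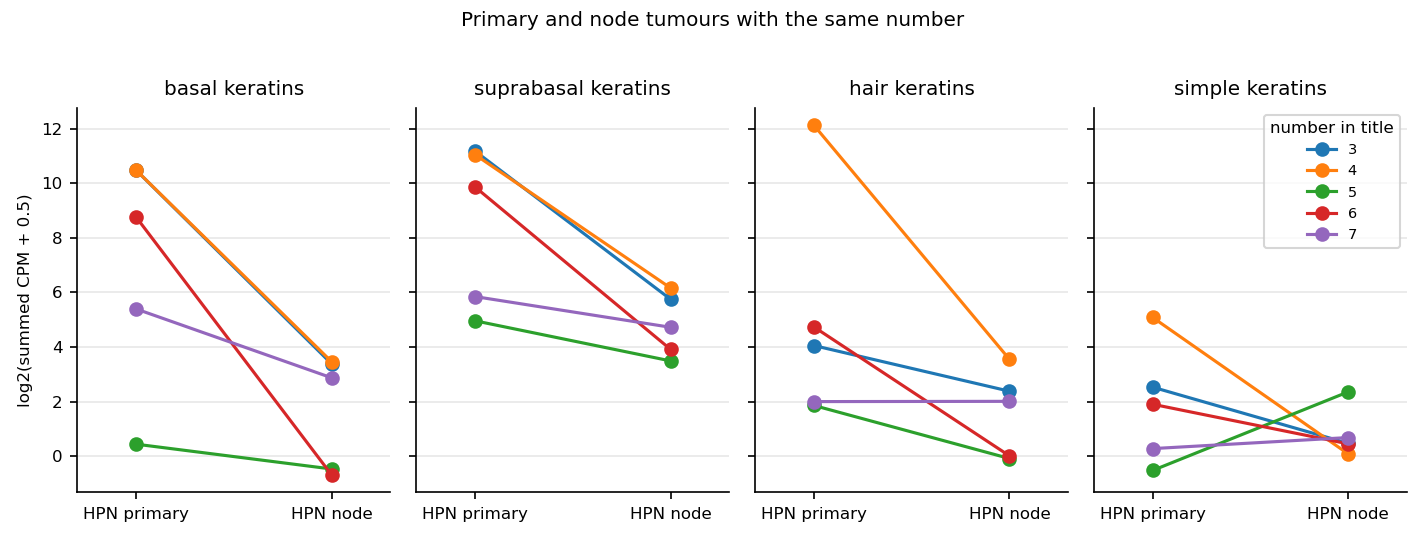
Summed keratin level as log2(summed CPM + 0.5) in the HPN primary and the node of the same title number, 1 line per number (3 to 7), in 4 panels for basal, suprabasal, hair and simple keratins. The lines of numbers 3, 4 and 6 fall steeply for basal and suprabasal keratins, those of 5 and 7 fall less, and for simple keratins number 5 rises from 0.194 to 4.62 CPM.

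Keratinocyte genes outside the family moved with the keratins. Of 12 listed keratinocyte markers, 10 fell in nodes, among them Sprr1b (cornified envelope), Dsg3 (desmosome) and Lgals7, with log2 fold changes of -8.02 ± 1.51, -7.81 ± 1.61 and -7.63 ± 1.58 (SE, adjusted p = 0.0023, 0.00407 and 0.00412, edgeR). The summed level of the 12 was 21.4 to 3407 CPM in HPN primaries and 34.2 to 84.1 CPM in nodes, and Cdh1 and Epcam were the 2 that did not pass. These 2 are part of the sums. Cdh1 alone was at 15.6 to 350 CPM in HPN primaries and 10.6 to 49.5 CPM in nodes, so the node sums are not a level of the genes that fell. Of the 23 genes found in a list of keratin anchors and linkers, 16 were lower and 0 higher, with a median of -4.94. The list holds genes of desmosomes and hemidesmosomes, to which keratin filaments are tied. It also holds Flg2, Hrnr, Tchh, Tgm1 and Tgm3, which are not genes of these junctions. The 3 of smallest p were Plec, the linker plectin, at -0.94 ± 0.18, Dsg3, and Pkp1, plakophilin, at -7.17 ± 1.52 (SE, adjusted p = 0.00249 and 0.00487 for Plec and Pkp1, edgeR).

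Of 19 regulators of keratin genes found, 14 were lower and 0 higher. Klf5 was at -3.38 ± 0.69, Tfap2a, which melanocytes also use, at -1.41 ± 0.29, and Zfp750, a differentiation factor of keratinocytes, at -7.21 ± 1.57 (SE, adjusted p = 0.00385, 0.00402 and 0.00559, edgeR). Skeletal muscle genes, which mark another tissue of the skin, also fell in 6 of 6, with a summed level of 2.20 to 3442 CPM in HPN primaries and 2.60 to 7.60 CPM in nodes. Lymphocyte genes rose in 8 of 8, from 4.17 to 23.3 CPM summed in primaries to 186 to 1387 CPM in nodes, and 5 of 6 tested lymph node stroma genes rose. Of 8 melanocyte markers 0 passed, and all 8 had negative log2 fold changes, with a median of -0.80. The part of tissue makeup in the keratin differences was not tested.

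Of the other intermediate filament genes 3 of 13 tested fell and 1 rose in nodes, where 9.81% of all genes were called lower and 12.7% higher. These were Nes, the nestin gene, by 2.44 ± 0.39, Lmna, a nuclear lamin gene, by 1.48 ± 0.28, and Vim by 0.95 ± 0.28 on the log2 scale (SE, adjusted p = 0.000754, 0.00202 and 0.027, edgeR). The gene that rose was Nefh, a neurofilament gene, by 4.10 ± 0.74 (SE, adjusted p = 0.00166, edgeR). Its highest level was 2.22 CPM.

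7 tested members were not called in nodes: Krt2, Krt7, Krt8, Krt18, Krt19, Krt20 and Krt80. Krt80, a type II keratin with a broad pattern in epithelia, had counts in every library, at 5.9 to 497 CPM over all 23 libraries. It was the leading keratin per kilobase in 11 of the 15 libraries below 1000 CPM. Its log2 fold change in nodes was -1.90 ± 0.76 (SE, adjusted p = 0.0837, edgeR), and it was at 63.9 and 69.9 CPM in the lungs. Krt20, a gene of intestinal and Merkel cells, was under 1 CPM in every library.

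Krt222 was the 1 member that rose in nodes. It was at 1.17, 0.263, 2.9, 1.93, 4.51, 4.15 and 3.15 CPM in node libraries 3, 4, 5, 6, 7a, 7b and 8 and at 0 to 0.244 CPM in HPN primaries, with a log2 fold change of 4.04 ± 0.90 (SE, adjusted p = 0.00642, edgeR). All nodes lay above all primaries for Krt222, as they did, in either direction, for 5.23% of all genes. Lymphocyte markers summed to 186 to 1387 CPM in the nodes. Nodes 4 and 3 were lowest and next lowest for Krt222 and for this sum, at 186 and 427 CPM. Node 5 had the highest sum and was below nodes 7a, 7b and 8 for Krt222. Lung 4 had 0.689 CPM of Krt222 beside a sum of 15.1, and lung 3 had 0 beside 3.96. The part of lymphocytes in this difference was not tested. The log2 fold change was 4.62 with the replicate block and 3.38 with only libraries without low-quality reads, and neither was called (adjusted p = 0.0861 and 0.0696, edgeR).

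The simple keratins set lung 4 apart from every other library. Krt7 was at 89.5 CPM, Krt19 at 61.6, Krt8 at 41.7 and Krt18 at 23.2 in lung 4, and at 0.129, 0.0965, 0.129 and 0.0643 CPM in lung 3. Outside lung 4 the highest value of any of the 4 genes was 2.49 CPM, for Krt7 in HP 6. These genes gave 216 CPM together in lung 4, and the simple keratins made up 63.3% of its keratin. Lung 4 held 8023 CPM of the 12 lung epithelium markers and 260 CPM of the 6 mesothelium markers found, and lung 3 held 5.05 and 5.92 CPM. The part of lung tissue in the simple keratin level was not tested.

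Against nodes, the 2 lungs were higher in Krt7 by 6.47 ± 1.44 and in Krt8 by 6.66 ± 1.77 on the log2 scale (SE, adjusted p = 0.0305 and 0.0454, edgeR), 2 of the 46 tested keratins where 1.96% of all genes were called higher. Krt19 at 6.65 ± 1.90 and Krt18 at 5.27 ± 1.62 did not pass (SE, adjusted p = 0.0571 and 0.0729, edgeR). Lung 3 was below every node for Krt7 and Krt18 and within the range of the nodes for Krt8 and Krt19. Without lung 4 the sign turned, to -1.97 for Krt7 and -0.67 for Krt8. The lung group is then 1 library, assumed to vary like the other groups, and 0% of all genes were called. Both calls also ended without node 6, 7 or 8, with the replicate block (adjusted p = 0.570 for Krt7 and 0.632 for Krt8), and with only libraries without low-quality reads. That of Krt8 also ended without node 3 or 5 or primary 3 or 4. Of the other lists, 7 of 9 lung epithelium, 5 of 6 mesothelium, 1 of 23 anchor and 1 of 13 other filament genes were higher in lungs than in nodes, and 7 of 8 lymphocyte and 3 of 6 stroma genes were lower, where 3.09% of all genes were called lower.

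Against HPN primaries 0 of the 46 tested keratins were called in the lungs by edgeR, where 0.266% of all 19152 genes were called, and 20 keratins and 1394 genes had an unadjusted p under 0.05. Krt7 was nearest to the threshold, with a log2 fold change of 6.77 ± 1.37 (SE, adjusted p = 0.0588, edgeR). DESeq2 called 11, namely Krt7 higher and 10 epidermal and hair genes lower, where it called 0.872% of all genes higher and 0.966% lower. Krt14 in lungs was at 10.3 and 6.41 CPM, within the range of the primaries, with a log2 fold change of -5.98 ± 2.55 (SE, adjusted p = 0.666, edgeR). Both lungs lay above every node for Krt14. Lungs and nodes did not overlap, in either direction, for 9 of the 46 tested keratins and for 20.9% of all genes. Of lung epithelium and mesothelium markers, 5 of 9 and 4 of 6 tested rose in the lungs. Krt20 had 0 counts in both lungs, which allows up to 0.0499 CPM over the group, and 70 counts in the 7 primaries.

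**Figure D5:**
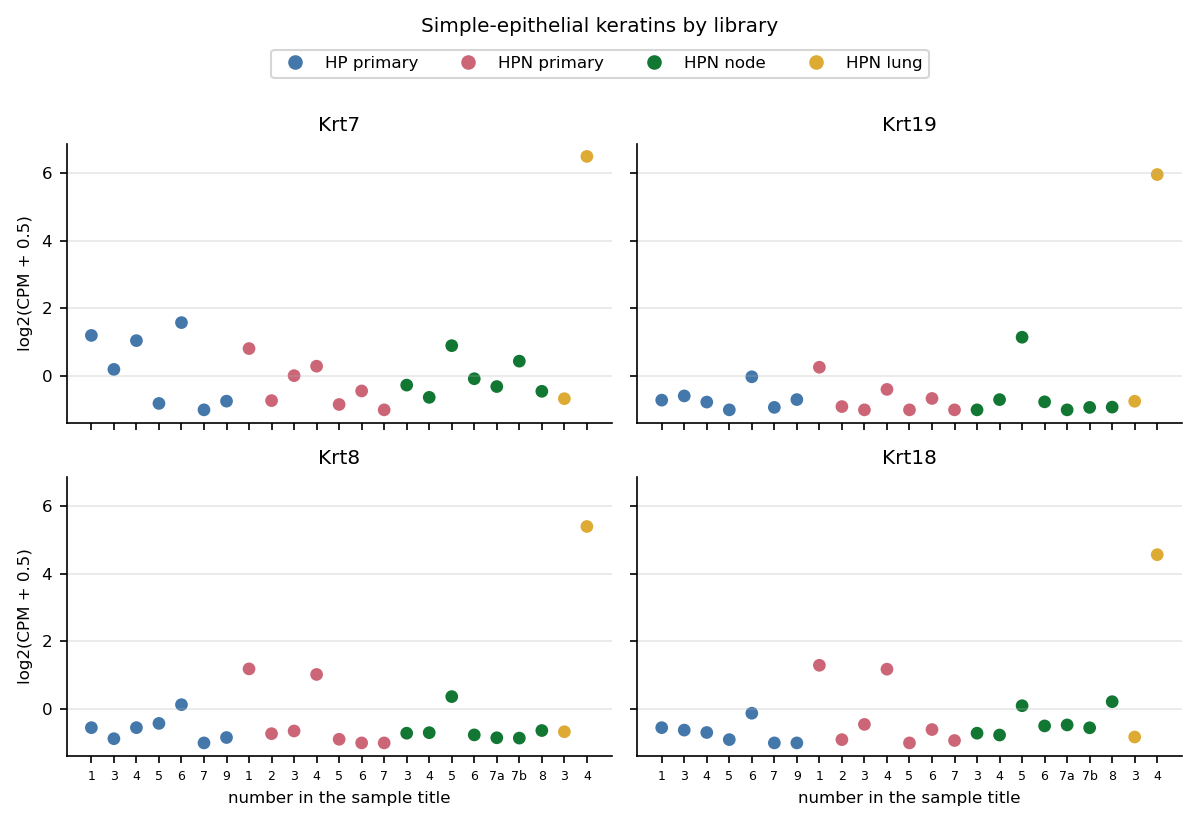
Levels of Krt7, Krt19, Krt8 and Krt18 in each of the 23 libraries, as log2(CPM + 0.5), with points coloured by group and ordered by title number. Lung 4 lies above all other libraries in all 4 panels, and node 5 is the highest node for Krt7, Krt19 and Krt8.

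Several members were at or near 0. The mucosal and corneal genes Krt4, Krt12, Krt13 and Krt76 summed to at most 1.94 CPM in any library and to 0 in both lungs. Krt9, of palm and sole skin, was at most 0.244 CPM, and had 0 counts over the 7 nodes, which allows up to 0.0132 CPM. Krt42, of the nail, and Krt88 were at most 2.2 and 0.14 CPM. Krt90 was at most 0.947 CPM, in HP 6, and its fall in nodes (log2 fold change -4.62 ± 1.43 SE, adjusted p = 0.0320, edgeR) rests on 42 counts in primaries and 1 in nodes. This call ended without any 1 of nodes 3, 4, 5, 6, 7 or 8 (adjusted p at most 0.0745), with all 4 groups in 1 fit and with only libraries without low-quality reads (adjusted p = 0.05004 and 0.160, edgeR). Krt90 had too few counts to be tested with the replicate block. Some members cannot be fully separated from their copies: of 50-base words in the transcripts of Krt6a, 49.5% also stood in another gene's transcripts, and the share was 50.1% for Krt6b, 43.5% for Krt81, 43.3% for Krt86, 37.6% for Krt16 and 26.9% for Krt8. How the counting treated such reads is not given in the sources used here.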

How the data were processed

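The authors deposited 1 table of read counts per gene for each of 23 libraries, whole and not normalized. Per the submitters' processing notes, bcl2fastq 1.8.4 and STAR 2.5.3a were used with build mm9; for the strand setting of the counting, the annotation and the read filters, the sources used here give nothing. Rows that name no gene were left out, among them reads in no feature (25.3% to 66.1% of unique reads). Ensembl identifiers were matched to symbols, and lengths are those of principal transcripts of GENCODE vM21. The members, lists and tests were chosen with earlier results of these data known.

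CPM use library sizes scaled with TMM over all 23 libraries. Tests were edgeR 4.0.16 quasi-likelihood fits (filterByExpr, TMM, robust) in R 4.3.3, with Benjamini-Hochberg adjustment over all genes tested and a threshold of 0.05: 1 fit for genotype in primaries and 1 for HPN primaries, nodes and lungs. Fits were tested on simulated data. Log2 plots use a pseudocount of 0.5 CPM and sums of CPM use none. A count of 0 allows up to 3 counts, for counting error only. Named were Krt5, Krt14, Krt1, Krt10, Krt8, Krt18, Krt7 and Krt19, the 2 highest tested members of each layer, the 3 called members of smallest p in each direction (or, with 0 called, the 1 of smallest p), and the 3 called genes of smallest p of other lists. Alternatives were DESeq2 1.42.0, its size factors, other filters, all 4 groups in 1 fit, nodes 7a and 7b apart, libraries without low-quality reads, each replicate left out, and the title number as a replicate block.

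Title numbers of HPN tumours were taken as pairing them, which the labels do not state. Correlations of deviations between node and primary of 1 number were 0.254, 0.002, -0.083, 0.265 and 0.134 for numbers 3 to 7, and a tumour's own number gave the highest correlation for 1 of 5. HP and HPN primaries differ in genotype, so a shared number cannot be 1 animal. Their correlations ran from 0.104 to 0.661, with the own number highest for 0 of 6, and the replicate block called 0 genes.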

Additional observations from a re-analysis of the deposited data

Results flagged for a closer look

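In groups of 4 to 10 samples, 6 of 87 tested sets of keratin values held 1 sample far from the others, and chance gives about 5% of sets. In node 5, Krt8 was at 0.791 CPM (next highest node 0.144), Krt19 at 1.71 CPM (next 0.117) and the simple keratins together at 4.62 CPM (next 1.15). In node 4, Krt33a of the hair shaft was at 0.846 CPM (next 0.115) and Krt90 at 0.0292 CPM, with 0 in the other nodes. Krt19 was at 0.484 CPM in HP primary 6 (next 0.165).

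Lung and node metastases differed in Krt7, by 6.47 on the log2 scale, and in Krt8, by 6.66, with lung 4 high and lung 3 low in both genes.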

How the results depend on the processing

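The genotype comparison called 0 keratin genes by edgeR under every alternative and by DESeq2. Of the 38 genes lower in nodes, 30 were called in every fit that left out 1 replicate. The number lower was 4 with the title number as a replicate block, 23 in the same samples without the block (an alternative chosen after seeing the data), 16 with only libraries without low-quality reads, and 32 to 39 with 1 replicate left out. The number higher in nodes was 0 with the block, where 5.07% of all genes were called higher. It was also 0 with only the libraries that list no low-quality reads, where 6.13% of all genes were called higher.

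For lungs against HPN primaries, DESeq2 called 11 (1.84% of all genes called), no filter 1 (0.491%), all 4 groups in 1 fit 1 (0.453%), nodes 7a and 7b apart 1 (0.349%), and leaving out 1 replicate 0 to 2. For lungs against nodes, the number higher was 1 with no filter (1.32% of all genes called higher), 4 with nodes 7a and 7b apart (3.08%), 0 with the replicate block (0%), 1 in the same samples without it (0.975%), 0 without the low-quality libraries (0%), and, with 1 replicate left out, 0 to 3.

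With the block, the log2 fold change in nodes turned to 1.51 for Krt8 and 0.78 for Krt18. With 1 replicate left out, lungs against primaries ran from -1.64 to 7.77 for Krt7, -1.96 to 6.32 for Krt8, -3.14 to 5.26 for Krt18 and -0.69 to 8.72 for Krt19, and lungs against nodes from -1.97 to 7.47, -0.67 to 7.67, -2.18 to 6.27 and -1.65 to 9.23, each lowest without lung 4. In nodes against primaries, Krt7 ran from -0.20 to 0.85 and Krt19 from -1.65 to 1.93, both lowest without node 5. The cause was not tested. Other alternatives left 608 values the same, counting single genes and the mean summed keratin CPM of each group, with 41 weaker and 14 stronger. For single genes this means the same direction and call, and for the means a shift under 1 SD. Few counts limit hair and mucosal keratins in nodes and lungs, and 2 lungs limit that group.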
